A study of Homo sapiens with 4 samples.

Results

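Lysosomal hydrolases, lysosomal membrane proteins, TFEB, TFE3 and the subunits of the vacuolar proton pump (V-ATPase) were followed in MOLM-13 cells. MOLM-13 is a line grown from human acute myeloid leukaemia, with a fusion of KMT2A to MLLT3 (MLL-AF9). The set held 23 genes taken by symbol and every symbol starting with ATP6V0 or ATP6V1 without a hyphen, of which there were 23, so it comprised 46 of the 27800 gene symbols in the table. RNA of 2 libraries labelled sgKAT6A, from cells given lentiviral CRISPR-Cas9 with a guide against the histone acetyltransferase KAT6A, was compared with RNA of 2 libraries labelled EV. All 4 libraries came from this one line under lentiviral CRISPR-Cas9. The sources used here do not give the guide sequence, the number of guides, what EV contains, the time of harvest or whether cells were a pool or a clone. Levels are in TPM, a length-corrected transcript share that totals 1000000 in each library. Genes whose mean over the 4 libraries reached 1 TPM were tested, 12603 in all, of which 39 were members. All 23 genes taken by symbol and 16 of the 23 V-ATPase symbols passed this filter.

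Lysosomes are acidic organelles in which glycans, lipids and proteins are broken down by hydrolases that work at low pH. The V-ATPase supplies that acidity. Its cytosolic V1 sector hydrolyses ATP, and its membrane-embedded V0 sector moves protons. TFEB and TFE3 are transcription factors of one family that bind an E-box-like element, the CLEAR element, near many lysosomal genes. When nutrients are low they move into the nucleus and raise lysosomal gene expression. Monocytes and macrophages are rich in lysosomes, and lysosomal content is known to increase as myeloid cells mature along that line.

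The promoters that hold the core of the CLEAR element are shown because they mark which members carry this sequence next to their start site. Promoter sequences came from RefSeq on GRCh38.p14 and matched 27 of the 39 members tested, with 34 promoters in all. LAMP2, HEXA, NAGLU, SGSH, PSAP, ASAH1, ATP6V0E1, ATP6V1A, ATP6V1B2, ATP6V1C1, ATP6V1E2 and ATP6V1H were not matched. The 250 bases before each start site were searched on both strands for CACGTG, which reads the same on both. It was found in 7 of the 34 member promoters, those of LAMP1, MCOLN1, GAA, NEU1, ATP6V0B, ATP6V0D1 and ATP6V1G1. Of all 35116 promoters in the table, 6.34% held it in a window of the same length, and 8.61% of the 12968 promoters of genes tested. The longer TCACGTG, which contains the same core, was in the same 7 member promoters and in 3.31% of all promoters (5.04% for genes tested). The full palindrome, the core with GT before it and AC after it, was in the promoters of MCOLN1, GAA and ATP6V1G1 and in 0.308% of all promoters (0.655% for genes tested). A separate element bound by this family, TCATGTG, was in 2.52% of all promoters (1.45% for genes tested) and in those of GRN, TPP1 and ATP6V0C. Where letters did not match, nothing follows about binding, and a match is not a bound site. In the sequences below, read 5′ to 3′ on the gene's strand, capitals mark the matches, and CACATGA is TCATGTG on the other strand.
LAMP1, chr13:113297017-113297238, plus strand: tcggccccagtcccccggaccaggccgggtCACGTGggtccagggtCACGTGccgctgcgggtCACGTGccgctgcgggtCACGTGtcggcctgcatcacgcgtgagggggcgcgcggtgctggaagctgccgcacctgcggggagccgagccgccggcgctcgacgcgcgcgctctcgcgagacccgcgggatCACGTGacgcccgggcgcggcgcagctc
MCOLN1, chr19:7522553-7522623, plus strand: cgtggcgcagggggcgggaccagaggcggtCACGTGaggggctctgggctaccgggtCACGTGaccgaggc
GAA, chr17:80101475-80101580, plus strand: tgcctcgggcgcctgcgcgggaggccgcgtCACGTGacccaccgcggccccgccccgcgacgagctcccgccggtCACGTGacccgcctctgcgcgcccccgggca
NEU1, chr6:31862912-31862977, minus strand: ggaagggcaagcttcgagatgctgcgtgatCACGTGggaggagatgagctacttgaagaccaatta
ATP6V0B, chr1:43974873-43974956, plus strand: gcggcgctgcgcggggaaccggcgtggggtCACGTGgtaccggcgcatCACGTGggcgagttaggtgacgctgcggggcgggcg
ATP6V0D1, chr16:67481181-67481246, minus strand: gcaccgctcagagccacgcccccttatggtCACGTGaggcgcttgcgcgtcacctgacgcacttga
ATP6V1G1, chr9:114587681-114587746, plus strand: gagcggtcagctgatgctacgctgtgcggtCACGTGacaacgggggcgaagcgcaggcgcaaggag
GRN, chr17:44345052-44345132, plus strand: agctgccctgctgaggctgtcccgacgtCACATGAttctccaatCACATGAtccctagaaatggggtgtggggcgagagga
TPP1, chr11:6619423-6619473, minus strand: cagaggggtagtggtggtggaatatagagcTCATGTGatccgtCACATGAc
LAMP1 held 5 copies of CACGTG within the window, against 2 in MCOLN1, GAA and ATP6V0B and 1 in the other three.

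KAT6A transcript was 12.2 and 10.8 TPM in sgKAT6A and 16.2 and 16.7 TPM in EV, so both sgKAT6A libraries lay below both EV libraries (log2 difference -0.48 ± 0.13, SE, limma adjusted p = 0.784). The libraries of each group differed among themselves for the genes described here. The 23 genes taken by symbol summed to 2587 and 3827 TPM in sgKAT6A and to 1770.5 and 2847 TPM in EV, so the number 2 library was the higher one in both groups. Of the 39 members tested, 33 were higher in replicate 2 than in replicate 1 in both groups, against 38.0% of all genes tested. The labels do not say that equal numbers mark a shared culture or day, nor whether replicates were separate cultures, so the p-values cover no more than the spread from library to library. The 18S ribosomal RNA symbol RNA18SN5 stood at 340 TPM in sgKAT6A replicate 2 and between 10401 and 13751 TPM in the other libraries. The line's own markers CD33, SPI1 and LYZ were at 99.2 TPM or more in every library. MPO was at 49.5 TPM or more, PTPRC at 30.7 TPM or more and ANPEP between 1.75 and 11.1 TPM. Read depth is unknown because TPM keeps none. With 2 libraries against 2, an exact permutation test cannot give a two-sided p below 0.333.

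**Figure D1:**
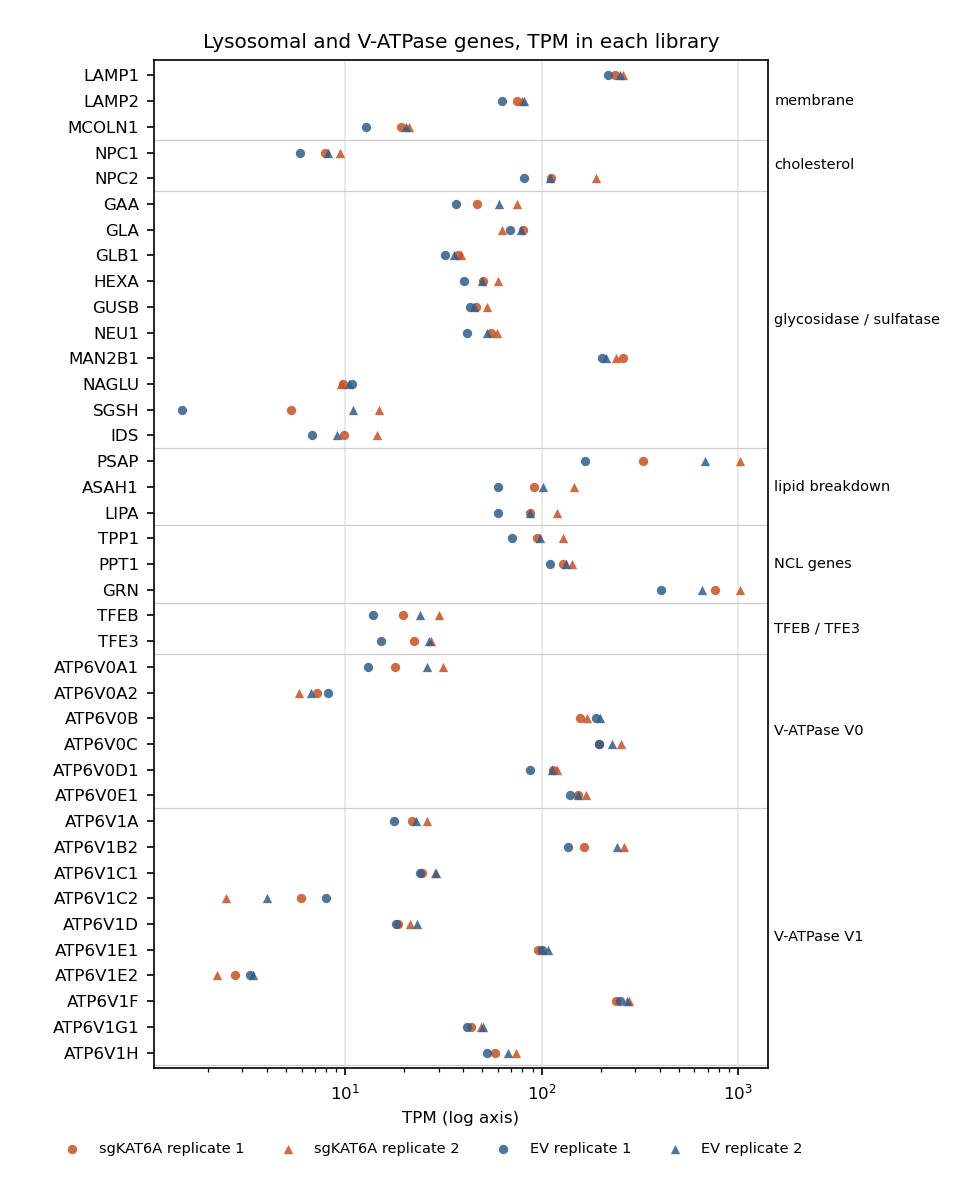
TPM (log axis) of the 39 members tested in each library, in order of role, with orange for sgKAT6A, blue for EV, circles for replicate 1 and triangles for replicate 2. For PSAP, SGSH and GRN the circles lie left of the triangles of the same colour, and EV replicate 1 is the lowest of the 4.

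Most hydrolase, membrane and regulator genes stood higher in sgKAT6A than in EV, but none passed the test. The median log2 difference (sgKAT6A minus EV, on the log2(TPM + 1) scale, which understates changes of low genes) was 0.29 over these 23 genes and 0.016 over the 16 V-ATPase genes. Over all genes tested it was -0.016. By limma with Benjamini-Hochberg adjustment, 0 of 39 members and 0 of 12603 genes had an adjusted p under 0.05 (0 members had an unadjusted p under 0.05, against 1.67% of all genes on the higher and 1.98% on the lower side). Both sgKAT6A libraries lay above both EV libraries for 10 members, 8 of them hydrolase, membrane or regulator genes, against 14.4% of all genes tested. Both lay below for 4 members, 3 of them V-ATPase genes, against 23.2% of all genes. With protein-coding genes alone, rescaled to the same total, these counts were 14 and 3 of 40 members, against 19.5% and 16.2% of all genes. Under median-of-ratios scaling they were 14 and 4 of 39 members, against 18.3% and 18.0% of all genes. Compared within equal replicate numbers, 27 members were higher in sgKAT6A in both (32.0% of all genes) and 6 were lower in both (36.2%). Summed monocyte maturation markers were higher in sgKAT6A within both replicate numbers, as were the summed hydrolase, membrane and regulator genes. The marker sums stood at 1007 and 2209.9 TPM in sgKAT6A and 442 and 1410.2 TPM in EV. The part of these markers in the values of the members was not tested.

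These values depended on which libraries entered. Without EV replicate 1 the median over all 39 members was -0.022, against 0.19 with all libraries, and 13 members turned direction. With EV replicate 2 left out it was 0.30, and with sgKAT6A replicate 2 left out 0.073. For the hydrolase, membrane and regulator genes alone the median stayed positive, at 0.073 without EV replicate 1, 0.17 without sgKAT6A replicate 2 and 0.61 without EV replicate 2. The V-ATPase median was negative with EV replicate 1 (-0.091) or sgKAT6A replicate 2 (-0.080) left out, and was 0.15 and 0.11 with EV replicate 2 or sgKAT6A replicate 1 left out. With EV replicate 2 left out, 31 members lay above without overlap (39.2% of all genes) and 6 below (35.7%), where fewer libraries leave less room for overlap. With sgKAT6A replicate 1 left out, 28 lay above (36.7% of all genes) and 7 below (44.1%). With EV replicate 1 left out, 10 lay above (19.5% of all genes) and 8 below (37.7%). With sgKAT6A replicate 2 left out, 11 lay above (27.6% of all genes) and 5 below (33.1%). The difference between the groups exceeded the gap inside both groups for 6 members on the higher side, namely GRN, MAN2B1, IDS, HEXA, GLB1 and ATP6V0E1, against 9.20% of all genes. On the lower side it did so for NAGLU, ATP6V0B and ATP6V1E2, against 14.5% of all genes.

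**Figure D2:**
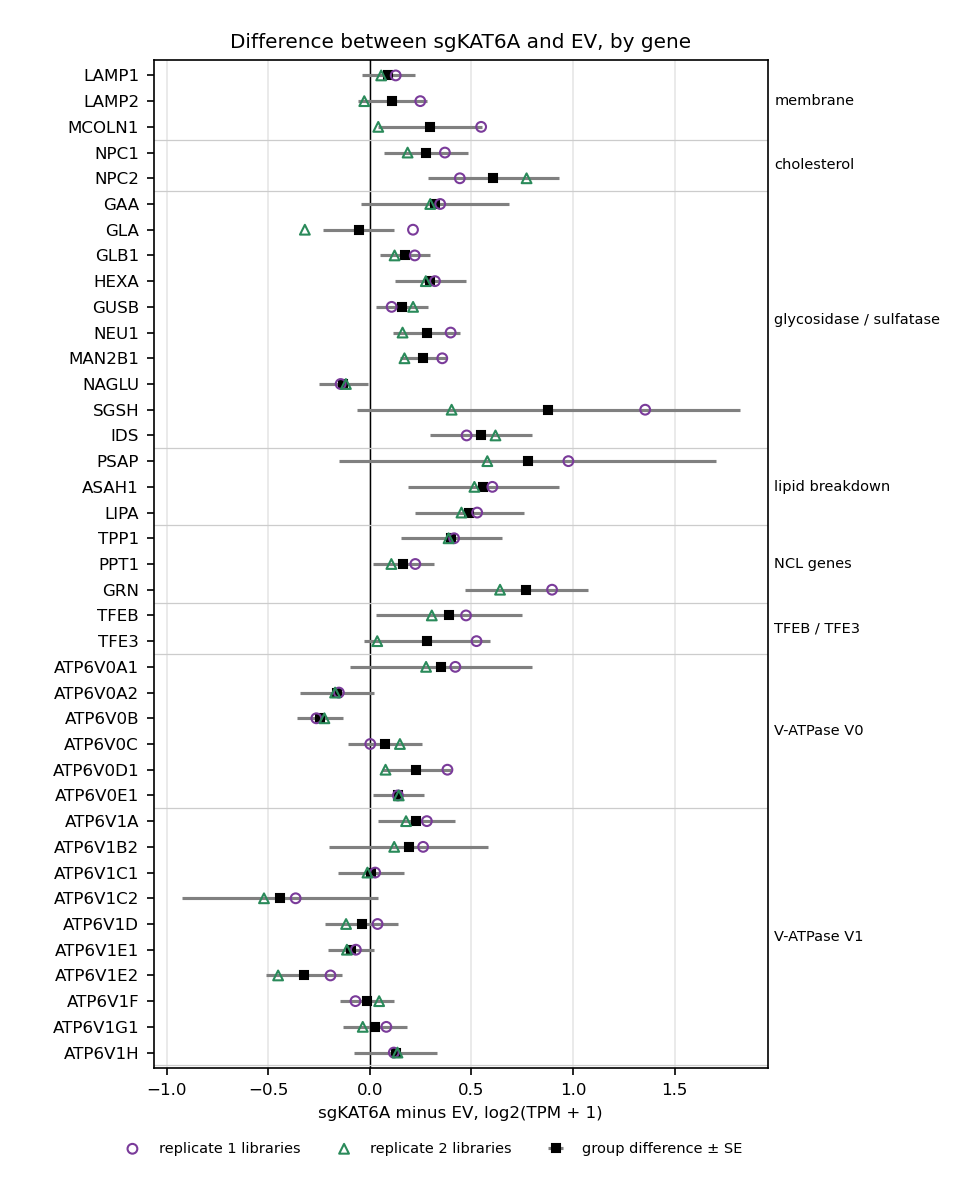
Difference between sgKAT6A and EV on the log2(TPM + 1) scale for the 39 members tested. Squares with bars are the group difference and its SE from limma, open circles the replicate 1 libraries and open triangles the replicate 2 libraries; the squares run from -0.44 for ATP6V1C2 to 0.88 for SGSH.

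Among membrane proteins, LAMP1 and LAMP2, the abundant glycoproteins of the lysosomal limiting membrane, differed little between the groups. LAMP1 was at 237 and 259.8 TPM in sgKAT6A and 217 and 249.9 TPM in EV. LAMP2 was at 74.9 and 79.8 TPM in sgKAT6A and 62.9 and 81.4 TPM in EV. MCOLN1, the lysosomal calcium channel TRPML1, was at 19.2 and 21.1 TPM in sgKAT6A and 12.8 and 20.5 TPM in EV. For all 3 genes the groups overlapped, and for MCOLN1 the low value was EV replicate 1. Log2 differences were 0.092 ± 0.13 (SE), 0.11 ± 0.17 and 0.29 ± 0.26 in that order (limma adjusted p = 0.854, 0.863 and 0.792). Without EV replicate 1 they were -0.0093, -0.072 and -0.022.

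NPC1 and NPC2 act together to pass cholesterol out of the lysosome, NPC2 in the lumen and NPC1 in the membrane. NPC2 was at 112 and 189 TPM in sgKAT6A and 81.8 and 110.0 TPM in EV. The sgKAT6A libraries stood just above and well above the higher EV library, a log2 difference of 0.61 ± 0.32 (95% interval -0.29 to 1.51, limma adjusted p = 0.784). It was 0.23 without sgKAT6A replicate 2 and 0.98 without sgKAT6A replicate 1. NPC1 was far lower in level, at 7.94 and 9.46 TPM in sgKAT6A and 5.92 and 8.19 TPM in EV, with overlapping groups (log2 difference 0.28 ± 0.21, and 0.073 with EV replicate 1 left out).

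Of the 10 glycosidases and sulfatases, 6 had both sgKAT6A libraries above both EV libraries (14.4% of all genes) and 1 had both below (23.2%). MAN2B1, the lysosomal alpha-mannosidase, was the most abundant of them, at 261 and 239 TPM in sgKAT6A and 203 and 212 TPM in EV. Its libraries lay close together within each group. The log2 difference was 0.26 ± 0.11 (95% interval -0.050 to 0.58, limma adjusted p = 0.784), and it stayed between 0.20 and 0.33 with any 1 library left out. HEXA, the alpha subunit of beta-hexosaminidase A, was at 50.6 and 60.3 TPM in sgKAT6A and 40.3 and 49.6 TPM in EV. NEU1, the lysosomal sialidase, was at 55.2 and 59.3 TPM in sgKAT6A and 41.7 and 52.9 TPM in EV. For both enzymes the lower sgKAT6A library lay only slightly above the higher EV library. Their log2 differences were 0.30 ± 0.17 and 0.28 ± 0.17 (limma adjusted p = 0.784 for each gene), and without EV replicate 1 they were 0.15 and 0.11. GLB1, the lysosomal beta-galactosidase, was at 37.7 and 38.9 TPM in sgKAT6A and 32.2 and 35.7 TPM in EV. GUSB, beta-glucuronidase, was at 46.5 and 52.6 TPM in sgKAT6A and 43.1 and 45.2 TPM in EV. In both, the groups did not overlap but came close at their nearest libraries.

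IDS, SGSH and NAGLU are enzymes of heparan sulfate breakdown. IDS, iduronate 2-sulfatase, was at 9.88 and 14.5 TPM in sgKAT6A and 6.82 and 9.09 TPM in EV, without overlap (log2 difference 0.55 ± 0.25, 95% interval -0.15 to 1.25, limma adjusted p = 0.784). With sgKAT6A replicate 2 left out that difference was 0.29, and with EV replicate 1 left out 0.36. SGSH, heparan N-sulfatase, was at 5.32 and 14.8 TPM in sgKAT6A and 1.47 and 10.99 TPM in EV. Here EV replicate 1 was far below the rest and the number 2 libraries were the high ones in both groups, so the log2 difference of 0.88 had an SE of 0.94 and was -0.26 without EV replicate 1. NAGLU, alpha-N-acetylglucosaminidase, had the opposite order, at 9.70 and 9.57 TPM in sgKAT6A and 10.8 and 10.5 TPM in EV. Both NAGLU values in sgKAT6A were lower than both in EV, by little (log2 difference -0.13 ± 0.12, limma adjusted p = 0.792). GAA, which breaks down glycogen, was at 47.0 and 75.1 TPM in sgKAT6A and 36.7 and 60.9 TPM in EV. The groups interleaved, and its log2 difference was 0.32. With EV replicate 1 left out it was -0.036, and with sgKAT6A replicate 2 left out -0.011. GLA, alpha-galactosidase A, was at 80.1 and 63.1 TPM in sgKAT6A and 69.0 and 79.0 TPM in EV. Its log2 difference of -0.053 was 0.014 after quantile normalization and 0.0076 with protein-coding genes alone, so it has no stable direction.

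Lipid breakdown genes were spread widely between libraries of one group. PSAP, the precursor of the saposins that present sphingolipids to their hydrolases (chr10:71816298-71851251), was at 329 and 1021 TPM in sgKAT6A and 167 and 683 TPM in EV. The number 2 library was several times the number 1 library in each group, with log2 gaps between replicate 2 and replicate 1 of 1.63 in sgKAT6A and 2.03 in EV, against a group difference of 0.78 ± 0.93. With EV replicate 1 left out that difference was -0.24, and with sgKAT6A replicate 2 left out -0.037. ASAH1, acid ceramidase, was at 91.5 and 146 TPM in sgKAT6A and 59.9 and 102 TPM in EV. LIPA, the acid lipase that releases cholesterol from its esters, was at 87.1 and 119.6 TPM in sgKAT6A and 60.1 and 87.2 TPM in EV. In both genes EV replicate 1 was lowest, sgKAT6A replicate 2 was highest, and the middle libraries came from different groups. Log2 differences were 0.56 ± 0.37 and 0.49 ± 0.27 (limma adjusted p = 0.784 for each). Without EV replicate 1 they were 0.18 and 0.22. The RefSeq span of LIPA overlaps the interferon-induced IFIT genes, and the sources used here do not say whether reads were assigned by strand.

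GRN, TPP1 and PPT1 are genes whose loss causes neuronal ceroid lipofuscinosis, a lysosomal storage disease. GRN encodes progranulin, a secreted and lysosomal protein that is cut into granulins (chr17:44345302-44353106), and was at 761 and 1026 TPM in sgKAT6A and 408 and 657 TPM in EV. Both sgKAT6A libraries stood above both EV libraries, and the number 2 library was the higher one in each group. The log2 difference was 0.77 ± 0.30 (95% interval -0.073 to 1.61), with the smallest unadjusted p of the 39 members, and did not pass (limma adjusted p = 0.784). It was 0.43 without EV replicate 1, 0.55 without sgKAT6A replicate 2, 0.98 without sgKAT6A replicate 1 and 1.11 without EV replicate 2. TPP1, a lysosomal tripeptidyl peptidase, was at 94.8 and 129 TPM in sgKAT6A and 70.8 and 98.1 TPM in EV. PPT1, which removes palmitate from proteins, was at 129 and 143 TPM in sgKAT6A and 110.1 and 133 TPM in EV. For both, sgKAT6A replicate 1 lay just below EV replicate 2, so the groups overlapped (log2 differences 0.40 ± 0.25 and 0.17 ± 0.15). With EV replicate 1 left out they were 0.17 and 0.032.

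The transcription factors followed the order of the libraries. TFEB was at 19.7 and 30.1 TPM in sgKAT6A and 13.9 and 24.2 TPM in EV. TFE3 was at 22.4 and 27.4 TPM in sgKAT6A and 15.2 and 26.7 TPM in EV. Both were lowest in EV replicate 1 and highest in sgKAT6A replicate 2, with overlapping groups. Log2 differences were 0.39 ± 0.36 and 0.28 ± 0.31 (limma adjusted p = 0.792 and 0.816), and with EV replicate 1 left out they were 0.010 and -0.10. With sgKAT6A replicate 2 left out that of TFEB was 0.095. Transcript levels say nothing of where these factors were in the cell.

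V-ATPase genes stayed close to even between the groups. Of the 16 tested, 2 stood above without overlap (14.4% of all genes) and 3 below (23.2%), which is near those shares. In the V0 sector, ATP6V0C, the c subunit of the proton-carrying ring, was at 196 and 253 TPM in sgKAT6A and 196 and 228 TPM in EV. ATP6V0B, the c'' subunit of the same ring, was at 157 and 170.3 TPM in sgKAT6A and 189 and 199 TPM in EV. The c subunit was level between the number 1 libraries, whereas both ATP6V0B values in sgKAT6A lay below both in EV. The ATP6V0B log2 difference was -0.24 ± 0.11 (95% interval -0.56 to 0.071, limma adjusted p = 0.784), and from -0.30 to -0.19 with any 1 library left out. For ATP6V0C it was 0.075 ± 0.18, and -0.11 without sgKAT6A replicate 2. ATP6V0D1, the d subunit that joins the ring to the V1 stalk, was at 115 and 120.0 TPM in sgKAT6A and 87.8 and 114 TPM in EV. ATP6V0E1, a small membrane subunit, was at 153 and 169 TPM in sgKAT6A and 139 and 153 TPM in EV. These were the 2 V-ATPase genes above without overlap, each with its nearest libraries almost touching (log2 differences 0.23 ± 0.17 and 0.14 ± 0.12). That of ATP6V0D1 was 0.046 without EV replicate 1.

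In the V1 sector, the catalytic A subunit ATP6V1A was at 21.8 and 26.1 TPM in sgKAT6A and 17.8 and 22.9 TPM in EV. Its partner in the hexamer, ATP6V1B2, was at 164 and 264 TPM in sgKAT6A and 137 and 243 TPM in EV. ATP6V1B2 separated the number 2 libraries from the number 1 libraries more than it separated the groups, and its log2 difference was 0.19 ± 0.39. With EV replicate 1 left out it was -0.22, and with sgKAT6A replicate 2 left out -0.15. The central shaft subunits were nearly level. ATP6V1D was at 18.7 and 21.4 TPM in sgKAT6A and 18.1 and 23.3 TPM in EV. ATP6V1F was at 239.6 and 280.0 TPM in sgKAT6A and 252 and 271 TPM in EV. Their log2 differences of -0.039 ± 0.18 and -0.012 ± 0.13 turned positive with protein-coding genes alone, to 0.020 and 0.049. ATP6V1H, a regulatory subunit, was at 57.7 and 74.2 TPM in sgKAT6A and 53.0 and 67.4 TPM in EV. The peripheral stalk subunit ATP6V1G1 was at 44.0 and 49.3 TPM in sgKAT6A and 41.5 and 50.6 TPM in EV. Another stalk subunit, ATP6V1E1, was at 95.8 and 99.99 TPM in sgKAT6A and 101 and 108 TPM in EV. The groups overlapped for ATP6V1A, ATP6V1H and ATP6V1G1 and did not for ATP6V1E1, which was lower in sgKAT6A by little (log2 difference -0.090 ± 0.11, limma adjusted p = 0.834). Without EV replicate 1 the log2 differences of ATP6V1A, ATP6V1H and ATP6V1G1 were 0.054, -0.043 and -0.12, against 0.23, 0.13 and 0.024 with all libraries.

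Several subunits have a second gene, and since TPM is per length the copies can be set side by side. ATP6V0A1 and ATP6V0A2 encode forms of the a subunit, which steers the pump to different membranes. ATP6V0A1 was at 17.9 and 31.7 TPM in sgKAT6A and 13.1 and 26.0 TPM in EV. ATP6V0A2 was at 7.22 and 5.85 TPM in sgKAT6A and 8.14 and 6.70 TPM in EV. ATP6V0A1 thus gave 71.2% and 84.4% of the subunit's TPM in sgKAT6A and 61.6% and 79.5% in EV, a share that was higher in the number 2 library of each group. The ATP6V0A1 log2 difference of 0.35 ± 0.45 was -0.12 without EV replicate 1. The C subunit showed the same order. ATP6V1C1 was at 24.6 and 28.8 TPM in sgKAT6A and 24.1 and 29.0 TPM in EV. ATP6V1C2, its second form, was at 5.97 and 2.49 TPM in sgKAT6A and 7.97 and 4.004 TPM in EV. ATP6V1C2 made up 19.5% and 7.96% of C subunit TPM in sgKAT6A and 24.8% and 12.1% in EV. Within each number it was lower in sgKAT6A, but its log2 difference of -0.44 had an SE of 0.48 and was 0.056 without sgKAT6A replicate 2. ATP6V1E2 was at 2.75 and 2.22 TPM in sgKAT6A and 3.29 and 3.41 TPM in EV, lower in sgKAT6A without overlap (log2 difference -0.32 ± 0.19, limma adjusted p = 0.784), and gave 2.18% to 3.17% of E subunit TPM.

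**Figure D3:**
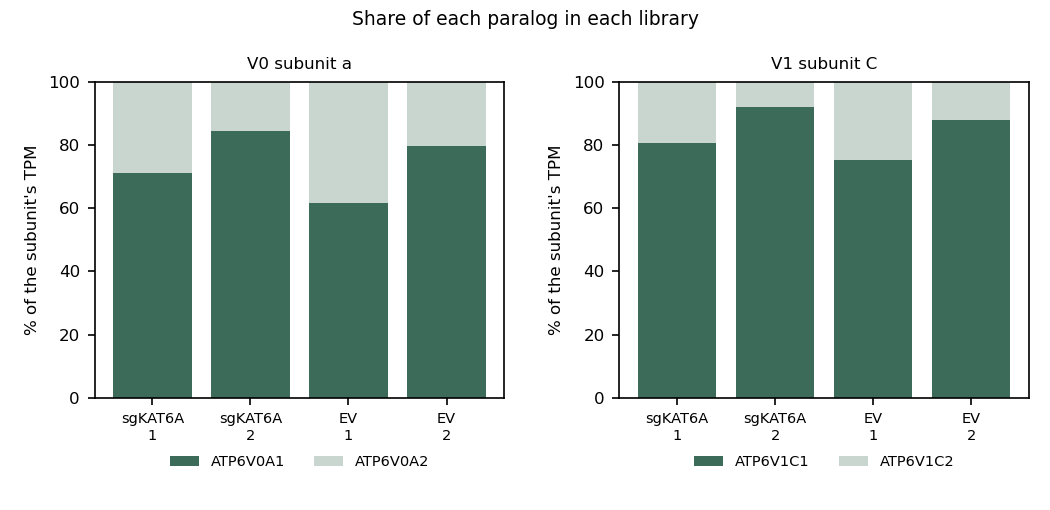
Share (%) of the summed TPM of the V0 subunit a (left) and the V1 subunit C (right) given by each of its main genes in each library, 1 bar per library. ATP6V0A1 ran from 61.6% in EV replicate 1 to 84.4% in sgKAT6A replicate 2, and ATP6V1C1 from 75.2% to 92.0% in the same libraries; ATP6V0A4, at 0.081% or less, is not drawn.

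The 7 members below the filter were all V-ATPase symbols. ATP6V1G3 and the pseudogene ATP6V0CP3 were listed at 0 in every library. ATP6V0A4 and ATP6V1B1, known from acid-secreting cells of the kidney, reached at most 0.035 TPM. ATP6V1G2 was at 0.396 and 0.927 TPM in sgKAT6A and 0.501 and 0.408 TPM in EV. ATP6V0E2 was at 0.484 and 0.421 TPM in sgKAT6A and 1.02 and 1.09 TPM in EV, with sgKAT6A below EV in both libraries. ATP6V0D2, the d subunit form known from mouse osteoclasts and macrophages, was at 0.222 and 1.86 TPM in sgKAT6A and 0.313 and 1.02 TPM in EV, with the number 2 library higher in each group. Just inside the filter was ATP6V1E2 with a mean of 2.92 TPM, and just outside it ATP6V0D2 with a mean of 0.854 TPM.

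The summed level of monocyte maturation markers had the same order of libraries as that of the hydrolase, membrane and regulator genes. That shared order rested on PSAP, at 329 and 1021 TPM in sgKAT6A and 167 and 683 TPM in EV. Without PSAP, the sum of sgKAT6A replicate 1 would lie above that of EV replicate 2. S100A8 and S100A9 gave most of the marker sum in every library. Of 9 markers (CD14, ITGAM, FCGR1A, CSF1R, CD86, CD163, S100A8, S100A9 and VCAN), 8 were tested. For 8 of these sgKAT6A was the higher one in each replicate number (32.0% of all genes), and for 1 both sgKAT6A libraries lay above both EV libraries (14.4%). In 7 of the 8 the number 2 library was the higher one in both groups, and VCAN was the exception. The marker with both sgKAT6A libraries above both EV libraries was CD86, a costimulatory protein. CD86 was at 17.6 and 29.5 TPM in sgKAT6A and 8.03 and 14.5 TPM in EV. CD163 was at 0.12 TPM or less in every library. The median log2 gap between replicate 2 and replicate 1 over these 8 markers was 1.11 in sgKAT6A and 1.61 in EV. Over the 23 hydrolase, membrane and regulator genes it was 0.25 in sgKAT6A and 0.41 in EV, and over the 16 V-ATPase genes 0.18 and 0.24. In RNA of a whole culture, more cells of a maturing type and more RNA per cell cannot be told apart. Markers of T cells, B cells, fibroblasts and epithelium summed to 11.7 TPM or less for each list and library, and CD2 and MS4A1 were listed at 0 throughout. Erythroid markers summed to 199.9 and 76.0 TPM in sgKAT6A and 48.2 and 205.7 TPM in EV. HBB, a chain of haemoglobin, gave most of it, at 188 and 61.1 TPM in sgKAT6A and 38.6 and 192 TPM in EV.

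**Figure D4:**
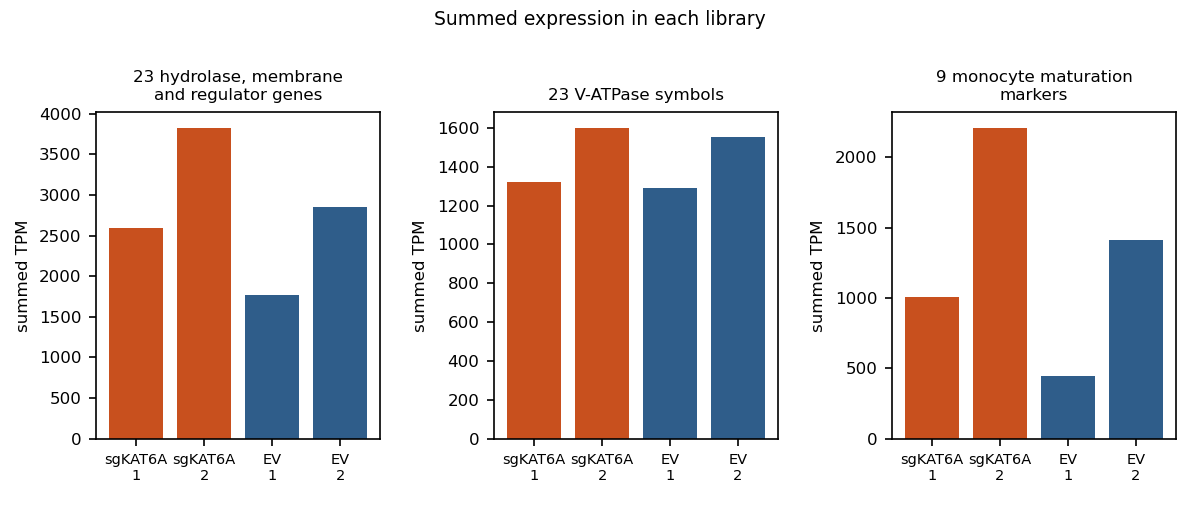
Summed TPM in each library of the 23 hydrolase, membrane and regulator genes, the 23 V-ATPase symbols and the 9 monocyte maturation markers, 1 bar per library. In all 3 panels the number 2 library of a group is higher than its number 1 library, and V-ATPase sums differ between the groups by little (1323 and 1601 TPM in sgKAT6A, 1290 and 1551 TPM in EV).

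**Figure D5:**
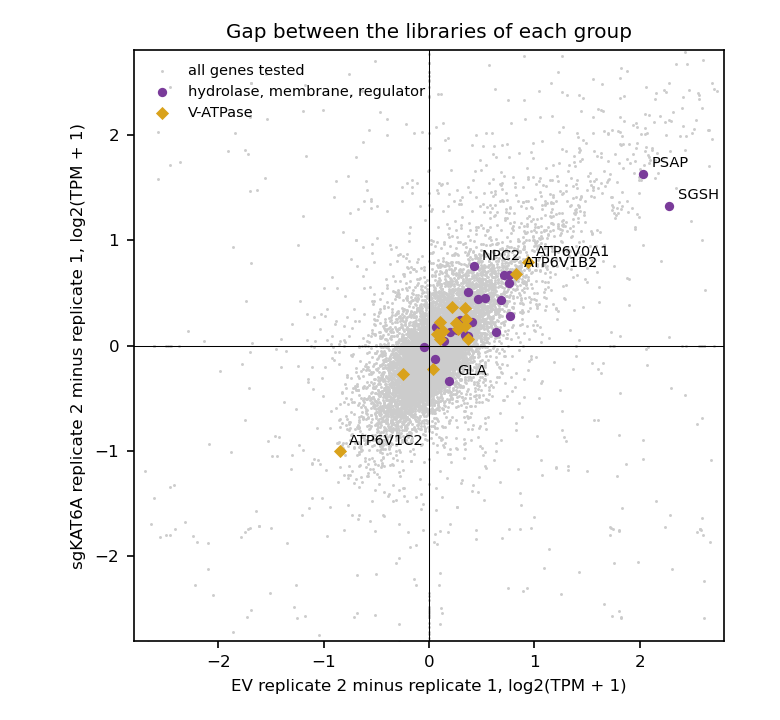
Log2 gap between replicate 2 and replicate 1 in EV (horizontal) and in sgKAT6A (vertical), on the log2(TPM + 1) scale, for all genes tested (grey), hydrolase, membrane and regulator genes (purple) and V-ATPase genes (yellow). PSAP and SGSH lie far to the upper right and ATP6V1C2 to the lower left; 278 genes lie outside the plotted range of 2.8 in either direction.

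Other genes of the lysosome were taken from lists drawn up from general knowledge. Of 39 further hydrolase and membrane genes, 38 were tested, with a median log2 difference of 0.21 and 0 past the adjusted threshold. Both sgKAT6A libraries were above both EV libraries for 9 of them (14.4% of all genes) and below for 2, LAPTM4B and NAGPA (23.2%). CD63, a tetraspanin of late endosomes and lysosomes, was at 348 and 384 TPM in sgKAT6A and 269 and 314 TPM in EV. GM2A, the activator that presents ganglioside GM2 to the HEXA enzyme, was at 49.2 and 73.4 TPM in sgKAT6A and 32.9 and 48.2 TPM in EV. LAPTM4A, a lysosomal membrane protein, was at 35.8 and 49.4 TPM in sgKAT6A and 27.2 and 35.1 TPM in EV. These 3 were higher in sgKAT6A in both libraries, whereas the related LAPTM4B was lower, at 67.5 and 57.6 TPM in sgKAT6A and 88.4 and 87.2 TPM in EV. The LAPTM4B log2 difference was -0.49 ± 0.13 (limma adjusted p = 0.784). The V-ATPase accessory proteins ATP6AP1 and ATP6AP2 were in this list. ATP6AP1 was at 85.3 and 118 TPM in sgKAT6A and 70.4 and 107 TPM in EV. ATP6AP2 was at 83.6 and 134 TPM in sgKAT6A and 77.0 and 129 TPM in EV. These genes were chosen after their values were seen, and both separated the replicate numbers more than the groups.

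Delivery of hydrolases to the lysosome depends on mannose 6-phosphate tags and their receptors. The 9 genes listed here for hydrolase sorting and processing are not all parts of that tag system. Of these, 3 were above without overlap (SORT1, GNPTG and GNPTAB, against 14.4% of all genes). On the lower side there were 0 (against 23.2%), and the median log2 difference over the 9 was 0.19. SORT1, sortilin, sorts PSAP and GRN among others without the mannose 6-phosphate tag. SORT1 was at 17.4 and 16.8 TPM in sgKAT6A and 11.4 and 12.4 TPM in EV. Its libraries were close within each group (log2 difference 0.49 ± 0.12, limma adjusted p = 0.784). GNPTAB and GNPTG, subunits of the enzyme that adds the tag, had nearer libraries between the groups. GNPTAB was at 10.1 and 10.1 TPM in sgKAT6A and 7.83 and 9.72 TPM in EV. GNPTG was at 43.7 and 64.0 TPM in sgKAT6A and 38.5 and 41.9 TPM in EV. IGF2R, the larger mannose 6-phosphate receptor, was at 46.4 and 39.1 TPM in sgKAT6A and 31.0 and 39.1 TPM in EV, with overlap.

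Nutrient sensing at the lysosome holds TFEB and TFE3 in the cytosol when amino acids are plentiful. Transcripts of 20 genes listed for it, with the TFEB relatives TFEC and MITF among them, were close to even between the groups. Their median log2 difference was 0.041. Without overlap, 5 were above (FLCN, FNIP1, TFEC, TSC1 and TSC2, against 14.4% of all genes) and 4 below (LAMTOR2, LAMTOR4, LAMTOR5 and RHEB, against 23.2%). FNIP1, which acts with folliculin on the Rag GTPases, was at 7.08 and 10.2 TPM in sgKAT6A and 4.97 and 6.50 TPM in EV. TSC1, a brake on mTORC1, was at 5.10 and 5.45 TPM in sgKAT6A and 4.01 and 4.69 TPM in EV. LAMTOR2, a part of the Ragulator anchor, was lower in sgKAT6A, with 189 and 159 TPM there and 199 and 202 TPM in EV. TFEC, a further member of the TFEB family, was at 11.4 and 11.2 TPM in sgKAT6A and 7.24 and 10.5 TPM in EV. The groups did not overlap for these 4 genes, and none passed (limma adjusted p = 0.784 for each).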

How the data were processed

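RNA of 2 sgKAT6A and 2 EV samples of MOLM-13 was sequenced, and the authors deposited 1 table of TPM per gene symbol. The submitters' processing notes name Salmon and hg38. The sources used here do not give the version, the annotation or the strand setting. Read depth is unknown, since TPM totals 1000000 in each library, so no counting interval was given.

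Genes whose mean reached 1 TPM (12603 of 27800) were taken as log2(TPM + 1) into limma 3.58.1 (R 4.3.3) with group as the sole term and a mean-variance trend. Tests were two-sided, with Benjamini-Hochberg adjustment over all genes tested and 95% intervals, on 2 residual and 1.98 prior degrees of freedom. The fit was tested on simulated data.

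The members and lists were chosen with earlier results of these data known. Every member with a mean of at least 1 TPM is given per library. Full statistics are for up to 4 members of a role with the smallest unadjusted p, and up to 4 genes by the same rule are named from each other list. No p was computed over the members. A further marker gene is not reported here. Promoters and gene positions came from RefSeq (GRCh38.p14), in which the spans of NPC1, NPC2, GLA, GLB1, SGSH, LIPA, PPT1, ATP6V1C2, ATP6V1D and ATP6V1E2 overlap other protein-coding genes. Other pseudocounts, filters and scalings, a replicate block and leaving out each library were tried as alternatives.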

Additional observations from a re-analysis of the deposited data

How the results depend on the processing

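No pseudocount, filter, scaling or left-out library gave a gene with an adjusted p under 0.05. The replicate block, which the labels do not call for, gave 15 genes and 0 members (smallest member adjusted p 0.145 by limma). At an unadjusted p under 0.05 the same block fit by limma gave 15 of the 39 members, against 2417 of 12603 genes. Deviations from the group means correlated between equal numbers at 0.455 over 12603 genes and 0.906 over the 39 members, from 2 pairs of libraries. The median over members was 0.17 to 0.25 under the other pseudocounts, filters and scalings, and the count above within both numbers 27 to 30. That count has no value with a library left out. Quantile normalization gave 17 members above without overlap (15.3% of all genes), against 10. It turned ATP6V1F to 0.058 and GLA to 0.014. Median-of-ratios scaling turned ATP6V1F to 0.019, and protein-coding genes alone turned ATP6V1F to 0.049, GLA to 0.0076 and ATP6V1D to 0.020. The protein-coding genes among those tested held 77.76% and 77.99% of all TPM in sgKAT6A replicates 1 and 2. In EV replicates 1 and 2 they held 81.07% and 81.54%. Rescaling to protein-coding genes multiplies every gene of a library by the same factor, so genes well above 1 TPM move by a similar log2 amount. The median log2 difference was 0.030 over the 10999 genes of the rescaled fit, against -0.016 over 12603 genes in the main fit. Median-of-ratios scaling also applies the same factor to every gene of a library. In the main fit ATP6V1F, GLA and ATP6V1D stood at -0.012, -0.053 and -0.039, and such small values can change sign under either scaling. Quantile normalization uses no common factor, and why genes turned under it was not tested.

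Leaving out 1 library gave 10 to 31 members above (19.5% to 39.2% of all genes) and 5 to 8 below without overlap (33.1% to 44.1% of all genes), where fewer libraries leave less room for overlap. Medians ran from -0.022 to 0.30 for all members, from -0.091 to 0.15 for V-ATPase genes and from 0.073 to 0.61 for the others. The members that turned direction ran from -0.0093 to 0.19 for LAMP1, -0.072 to 0.29 for LAMP2, -0.022 to 0.61 for MCOLN1, -0.036 to 0.68 for GAA, -0.22 to 0.12 for GLA, -0.26 to 2.02 for SGSH, -0.24 to 1.79 for PSAP and -0.10 to 0.66 for TFE3. V-ATPase genes ran from -0.12 to 0.82 for ATP6V0A1, -0.11 to 0.26 for ATP6V0C, -0.22 to 0.60 for ATP6V1B2, -0.12 to 0.14 for ATP6V1C1, -0.94 to 0.056 for ATP6V1C2, -0.21 to 0.13 for ATP6V1D, -0.12 to 0.0999 for ATP6V1F, -0.12 to 0.16 for ATP6V1G1 and -0.052 to 0.31 for ATP6V1H. Of the 39 members, 13 turned with EV replicate 1 left out, 10 with sgKAT6A replicate 2, 3 with EV replicate 2 and 2 with sgKAT6A replicate 1.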

Other observations

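Autophagy genes, whose products feed cargo to the lysosome and several of which are TFEB targets, were close to even between the groups. Of 19 such genes tested, 1 had both sgKAT6A libraries above both EV libraries (14.4% of all genes tested) and 2 had both below (23.2%), VPS11 on the higher side and ATG5 and ATG12 on the lower, with a median log2 difference of 0.027 and 0 past the adjusted threshold by limma (0 also at an unadjusted p under 0.05). ATG5, a part of the conjugation machinery of the autophagosome, was at 15.3 and 13.2 TPM in sgKAT6A and 17.3 and 17.0 TPM in EV. WIPI1, which binds phosphoinositides where autophagosomes form, was at 7.46 and 11.3 TPM in sgKAT6A and 3.93 and 7.77 TPM in EV. The number 2 library was the higher one of each group for WIPI1.

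The readthrough symbol ATP6V1G2-DDX39B, left out of the V-ATPase genes for its hyphen, was at 1.27 and 2.44 TPM in sgKAT6A and listed at 0 in both EV libraries. Its mean of 0.926 TPM was below the filter of 1 TPM, so it was not tested. The other symbols left out for a hyphen, ATP6V0E2-AS1 and ATP6V1B1-AS1, were at 0.482 TPM or less in every library. ATP6V1G2 itself was below 1 TPM in every library. The neighbouring helicase gene DDX39B, with which the readthrough shares exons, was at 205 and 183 TPM in sgKAT6A and 222 and 221 TPM in EV.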
